A study of Mus musculus with 9 samples.

Results

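Genes for extracellular proteases and for their inhibitors were followed in mouse neural stem cells (NSCs) depleted of Med12, a subunit of the Mediator complex that links transcription factors to RNA polymerase II. Members were all array probes whose single annotated gene symbol began with Mmp, Adam or Timp and a digit, or with Adamts or Serpin. That rule found 235 probes for 134 genes, of 34885 probes for 19057 genes with 1 symbol on the array. The members were 70 protease genes (21 MMPs, 32 ADAMs and 17 ADAMTSs), 60 inhibitor genes (4 TIMPs and 56 serpins) and 4 ADAMTS-like genes, whose products lack a protease domain and which were counted apart. Protease and inhibitor name the gene family here, since some members of each (such as Adam22, Adam23, Serpinf1 and Serpinh1) are not active as such. Mmp15, Adam19 and Adamts5 were not analysed here.

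The mNS-5 line is a clonal, adherent NSC line derived from mouse embryonic stem cells and grown on gelatin with EGF and FGF-2. Med12 KD cells received a lentivirus with a Med12 shRNA and NS control cells a lentivirus with a non-silencing shRNA, and both were selected with puromycin and harvested 5.5 days after infection. Biotin-labelled cRNA made from total RNA was hybridized to Illumina MouseWG-6 arrays, 6 for Med12 KD and 3 for NS control, in 3 numbered sets that each held 2 Med12 KD arrays and 1 NS control array. The methods name 1 Med12 shRNA and 3 biological replicates per arm, and the labels do not say how the second Med12 KD array of a set (labelled 1_2, 2_2 and 3_2) relates to the first. The p-values therefore measure the spread between these arrays, part of which may be technical, and results from 1 shRNA in 1 clonal line carry no check against a second shRNA or line.

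Proteolysis around a cell is set by the balance of enzymes and inhibitors. MMPs are zinc proteases that cut matrix proteins, and the membrane-type MMPs do so at the cell surface. ADAMs release the outer parts of membrane proteins such as growth factors and Notch, and several ADAMTS enzymes cut the chondroitin sulfate proteoglycans that fill the matrix of the brain. TIMPs block metalloproteinases directly, whereas most serpins trap serine proteases and some serpins have lost inhibitory activity. In the nervous system these genes are known from cell migration, remodelling of the perineuronal matrix and the astrocyte response to injury.

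Values are normalized array intensities on a linear scale, and differences are given as log2 of Med12 KD over NS control, with intensities below 16 set to 16. An intensity over 16.9 counted as above background. A gene was tested when its probe passed that limit on at least 3 of the 9 arrays, and passed at an adjusted p of at most 0.05 in limma, adjusted by Benjamini-Hochberg over the 10757 genes tested. The Med12 probe read 112, 124 and 176 (lowest, median and highest) on the Med12 KD arrays, against 355, 356 and 267 on the NS control arrays, a log2 difference of -1.26 ± 0.18 (SE). The NSC label was met by the marker genes: 6 of 7 with a probe, Sox2 and Nes among them, were above background on all 9 arrays. The summed intensity ran 33288 to 37131 in Med12 KD cells and 33589 to 36226 in NS control cells. Most of that sum was Slc1a3, at 19036 to 25956 per array, so it says little of the other markers. Vim, Nes, Olig2 and Fabp7 had log2 differences of -0.40, -0.22, -0.31 and -0.50, Slc1a3 of 0.21 and Sox2 of 0.0005, and none passed. Pax6 was above background on 2 arrays, both NS control. Of 6 neuronal markers, Tubb3, Rbfox3 and Stmn2 were above background on 0 arrays and Map2 on all 9. The neuronal sum, nearly all of it Map2, ran 6361 to 8112 in Med12 KD cells and 5243 to 6211 in NS control cells, without overlap, though neither Map2 nor Dcx passed (log2 differences of 0.33 and 0.96, adjusted p = 0.122 and 0.113), and its part in the results was not tested. Array medians ran 8.9 to 9.0, and 18654 to 18690 probes per array were above background. Quantile normalization makes both nearly equal between arrays, so they are no check of array quality.

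Most of the genes lay at or below background in these cells. Of the 134 members, 47 were tested (35.1%), against 56.4% of all genes with 1 symbol. Of the proteases 31 of 70 were tested (44.3%) and of the inhibitors 15 of 60 (25.0%), and 56 members were above background on 0 arrays. The serpins made up most of the undetected genes, 30 of 56 being above background on no array. Gene clusters account for many of these. Of 20 Serpina genes that neighbour each other on chromosome 12, 11 were above background on 0 arrays and only Serpina3n on all 9, and of 11 Serpinb genes on chromosome 1, 7 were on 0 and none on all 9. Of 9 neighbouring Mmp genes on chromosome 9, including Mmp3, Mmp8, Mmp10 and Mmp12, 2 were tested.

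**Figure D1:**
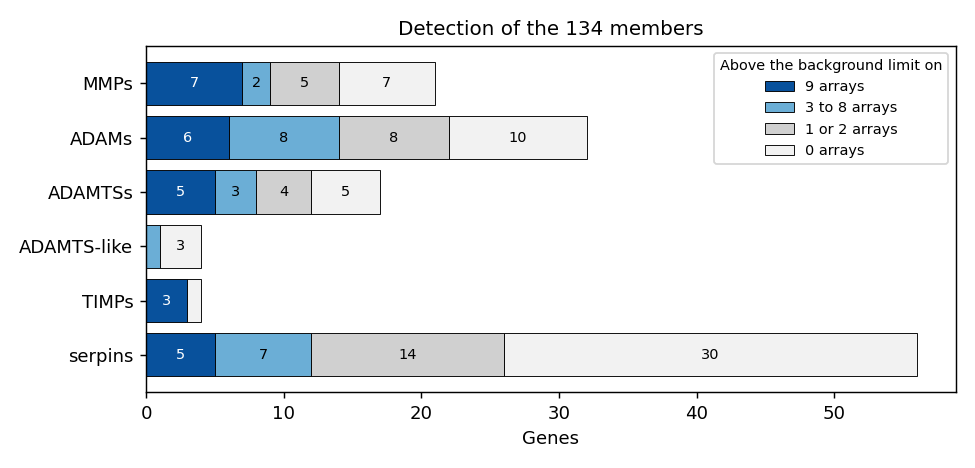
Number of genes (horizontal axis) in each family (rows), shaded by the number of the 9 arrays on which the brightest probe was above the background limit of 16.9. Among serpins 30 of 56 genes were above it on 0 arrays, whereas 7 of 21 MMPs and 3 of 4 TIMPs were above it on all 9.

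The filter cut through a group of faint genes. Adamts10, Adamts20, Adamtsl3, Serpina3j, Serpinb6b, Serpinb6c and Serping1 were above background on exactly 3 arrays and entered the test, while Adam11, Adam28, Adamts15, Mmp10, Serpinb12, Serpinb3d, Serpinb9b and Serpini1 were above it on 2 and did not. Serpini1, which encodes neuroserpin, the axonal inhibitor of tissue plasminogen activator, read -8.0 to 29.4 in Med12 KD cells and -4.8 to 1.6 in NS control cells. Timp1, the inducible TIMP, read -7.5 to 4.8 in Med12 KD cells and -8.9 to 6.7 in NS control cells, so that no array showed it above background. Serpinb9, the granzyme B inhibitor, and Adamtsl4, a fibrillin-binding protein, were also above background on 0 arrays. Adam24, Serping1 and Serpina1a entered the test through Med12 KD arrays alone, and none of them passed. No member entered through NS control arrays alone. Of all 10757 genes tested, 313 entered through Med12 KD arrays alone and 11 through NS control arrays alone. The filter needed all 3 NS control arrays but only 3 of the 6 Med12 KD arrays, so it let in faint genes more easily on the Med12 KD side.

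Upon Med12 depletion, 4 genes of the TIMP and serpin families and 2 of the protease families rose, and 1 of the protease families fell. Serpina3n, Timp2, Serpinb6a and Serpinf1 rose by 2.09, 1.47, 1.24 and 1.11 on the log2 scale, the protease genes Adamts4 and Adam12 by 1.06 and 0.93, and Adam4, a faint gene, fell by 0.93. The share of tested inhibitors that rose was 4 of 15 (26.7%) and that of tested proteases 2 of 31 (6.45%), beside 6.56% of all genes tested that were higher. Of the tested genes, 1 of 31 proteases (3.23%) and 0 of 15 inhibitors fell, beside 3.81% of all genes that were lower. Of the members that rose, 5 also reached 2-fold (Adam12 did not), where 3.02% of all genes were higher and 0.781% lower by these criteria. The difference between the inhibitor share and the protease share was not tested, and the counts are small. Of the 4 that rose in the inhibitor families, Serpinf1 encodes a serpin without inhibitory activity. With both Med12 KD arrays of each set averaged (3 against 3), Adam12, Adamts4 and Serpinb6a still passed in limma, whereas Serpinf1, Timp2, Adam4 and Serpina3n did not (adjusted p = 0.0572, 0.0732, 0.0895 and 0.109). That left 1 inhibitor and 2 proteases higher. The first Med12 KD array of each set alone gave 1 and 1, and the second alone gave 0 and 2. More inhibitors than proteases rose in the main fit, but not in these fits with fewer arrays.

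Among genes above background on all 9 arrays, none entered through 1 group alone. There 4 of 8 inhibitors and 2 of 18 proteases rose, beside 587 of 8258 genes (7.11%). The median log2 difference was 0.92 for these inhibitors and 0.36 for these proteases, against -0.01 for all such genes. Over all tested members the medians were 0.21 for inhibitors and 0.16 for proteases, against -0.002 for all genes. Every Med12 KD array was above every NS control array for 4 inhibitors and 5 proteases, 9 of 47 members (19.1%), beside 10.6% of all genes, and the opposite held for 2 (4.26%), beside 8.39% of all genes.

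**Figure D2:**
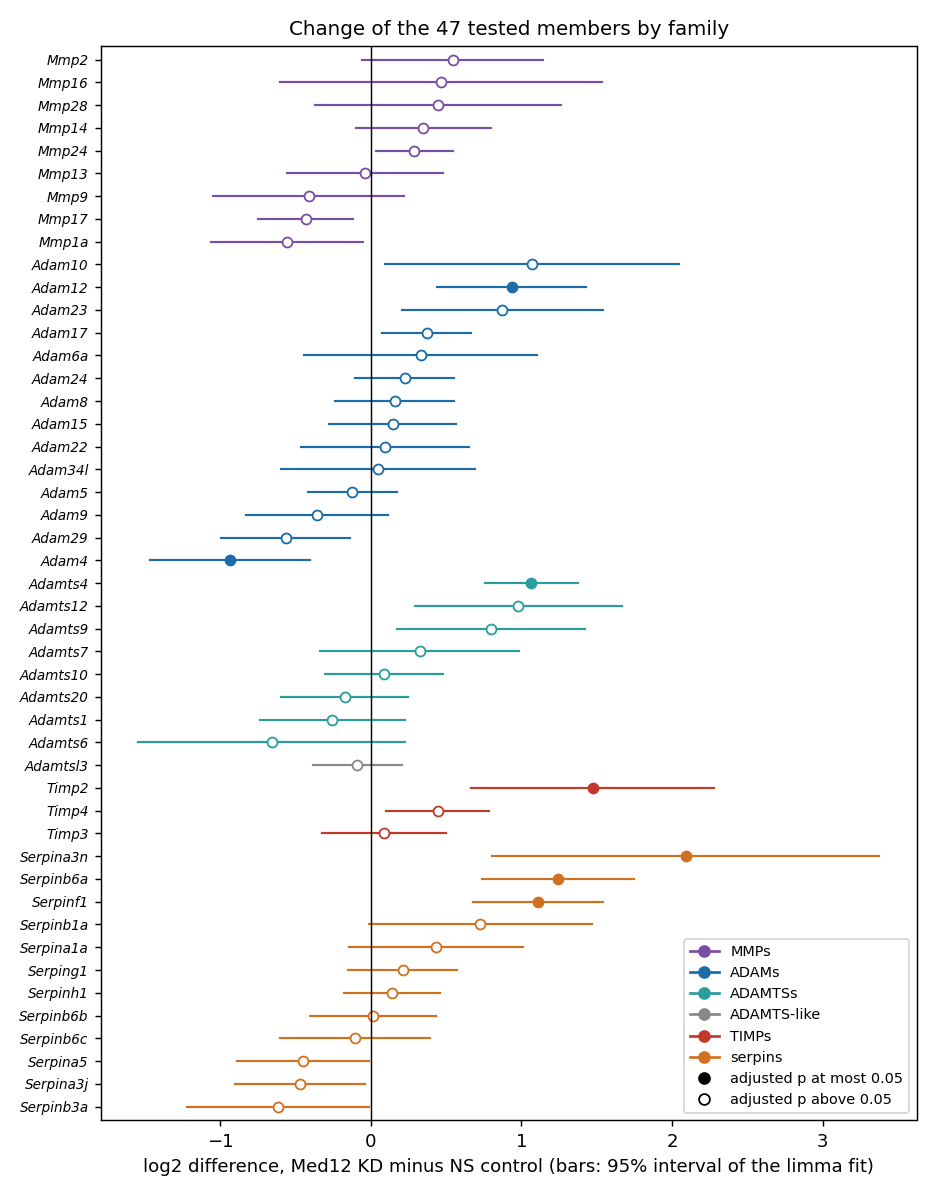
Log2 difference of each tested member (rows, by family), Med12 KD minus NS control, with the 95% interval of the limma fit, filled where the adjusted p was at most 0.05. The filled points are 4 inhibitors (Timp2, Serpina3n, Serpinb6a, Serpinf1), Adam12 and Adamts4 to the right of 0, and Adam4 to the left.

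Among the inhibitors, Serpina3n had the largest log2 difference. It encodes a secreted serpin that inhibits cathepsin G and granzyme B in the mouse and is well known from reactive astrocytes. Its intensity (probe ILMN_1246800) was 191, 253 and 832 (lowest, median and highest) in Med12 KD cells, against 137, 38.3 and 98.7 in NS control cells. Every Med12 KD array was thus above every NS control array, and both Med12 KD arrays of set 1, at 832 and 800, stood far above the other 4, which ran 191 to 261. The log2 difference was 2.09 ± 0.58 (SE, 95% interval 0.81 to 3.38), with a limma adjusted p of 0.0464. With both set 1 Med12 KD arrays left out it was 1.47 and no longer passed (adjusted p = 0.0635). Leaving out any 1 of 7 of the 9 arrays also took the adjusted p over the threshold, to at most 0.170 (Med12 KD 1, 1_2, 2_2 or 3_2, or NS control 1, 2 or 3), with differences of 1.56 to 2.48.

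Timp2, the inhibitor that both blocks MMPs and takes part with the membrane-type enzyme Mmp14 in the activation of pro-Mmp2, was also highest in set 1 in both groups. It read 583, 700 and 1878 in Med12 KD cells, and 449, 267 and 258 in NS control cells (probe ILMN_2712867). The groups did not overlap, the set 1 Med12 KD arrays were highest at 1197 and 1878, and the set 1 array was the highest NS control. The log2 difference was 1.47 ± 0.36 (SE), adjusted p = 0.0299. It was 1.08 without the set 1 Med12 KD arrays, where the limma adjusted p was 0.0217, and the call was lost without Med12 KD 1, NS control 2 or NS control 3 (adjusted p up to 0.115, differences of 1.25 to 1.73 over all 9 omissions).

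The summed astrocyte markers and Dcn, of the fibroblast markers, were also highest on the set 1 Med12 KD arrays. The summed intensity of 4 astrocyte markers (Gfap, S100b, Aqp4 and Aldh1l1) was 561 and 793 on those arrays and 306 to 421 on the other Med12 KD arrays, against 168 to 263 in NS control cells. Of these only Aldh1l1 passed, with a log2 difference of 1.04 (limma adjusted p = 0.0400), S100b alone was above background on all 9 arrays, and Gfap, the defining astrocyte filament, read at most 37.0 on any array. Dcn read 138 and 353 on the set 1 Med12 KD arrays, 13.5 to 42.6 on the other Med12 KD arrays and below 0 on all NS control arrays, while Col1a1 was above background on 0 arrays. The 5 fibroblast markers summed to 24.0 to 353 in Med12 KD cells and 22.2 to 54.1 in NS control cells, and 0 of 5 were above background on all 9 arrays. Whether astrocyte-like cells had a part in the differences of Serpina3n, Timp2 and Adamts12 was not tested. In bulk RNA, fewer cells of a type and less RNA per cell cannot be told apart.

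Serpinb6a and Serpinf1 rose with less spread between arrays. Serpinb6a encodes an intracellular serpin of the ovalbumin clade that inhibits cathepsin G and other serine proteases. It read 172, 215 and 324 in Med12 KD cells and 113, 97.9 and 74.9 in NS control cells (probe ILMN_1250279), with no overlap and a log2 difference of 1.24 ± 0.23 (SE, limma adjusted p = 0.00884). Serpinf1 encodes pigment epithelium-derived factor, a secreted serpin without inhibitory activity that is known as a neurotrophic and anti-angiogenic protein. It read 308, 342 and 349 in Med12 KD cells and 106, 160 and 217 in NS control cells (probe ILMN_2639239), a log2 difference of 1.11 ± 0.19 (SE, limma adjusted p = 0.00712). The 6 Med12 KD values of Serpinf1 lay within a narrow band and the 3 NS control values were spread over a wider one.

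Both calls stood when any 1 array was left out (adjusted p up to 0.0460 for Serpinb6a and 0.0292 for Serpinf1), but both rested on 1 probe. A second Serpinf1 probe, annotated to another cDNA and dimmer, read 16 to 54.6 in Med12 KD cells and 44.0 to 63.3 in NS control cells, a difference of -0.77 ± 0.31 (SE) that did not pass (adjusted p = 0.171 over probes). For Serpinb6a a second, dimmer probe differed by -0.35 ± 0.29 (SE). Averaging the probes of each gene brought Serpinf1 to 0.17 and Serpinb6a to 0.45, neither past the threshold. Serpina3n and Serpinb6a each belong to a cluster of related genes, and cross-reaction of their probes with relatives was not tested, so their values are uncertain to that extent. Serpinb6b and Serpinb6c, neighbours of Serpinb6a, read at most 26.2 and 28.3 on any array.

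Upstream sequences of the 4 inhibitors that rose are shown to make them comparable with each other, since they lie in different gene neighbourhoods. Each line holds the 250 bases before the annotated start in RefSeq (build GRCm38.p6), read 5′ to 3′ on the gene's strand, with capitals marking matches to any of 6 motifs searched on both strands.
Serpina3n (chr12:104406458-104406707, plus strand): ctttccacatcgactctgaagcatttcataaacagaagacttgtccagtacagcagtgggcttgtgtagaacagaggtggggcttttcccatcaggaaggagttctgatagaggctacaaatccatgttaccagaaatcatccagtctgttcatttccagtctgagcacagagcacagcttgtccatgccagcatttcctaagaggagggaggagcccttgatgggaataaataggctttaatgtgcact
Serpinb6a (chr13:34002795-34003044, minus strand): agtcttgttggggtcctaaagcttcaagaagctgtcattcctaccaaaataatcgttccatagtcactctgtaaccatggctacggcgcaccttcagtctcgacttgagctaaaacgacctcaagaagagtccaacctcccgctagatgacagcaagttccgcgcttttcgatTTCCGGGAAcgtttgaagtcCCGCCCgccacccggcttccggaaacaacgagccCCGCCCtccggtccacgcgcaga
Serpinf1 (chr11:75422624-75422873, minus strand): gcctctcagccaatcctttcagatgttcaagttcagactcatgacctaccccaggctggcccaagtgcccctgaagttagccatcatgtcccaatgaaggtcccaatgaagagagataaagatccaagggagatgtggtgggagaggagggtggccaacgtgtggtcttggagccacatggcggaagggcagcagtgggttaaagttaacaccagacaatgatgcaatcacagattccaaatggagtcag
Timp2 (chr11:118355412-118355661, minus strand): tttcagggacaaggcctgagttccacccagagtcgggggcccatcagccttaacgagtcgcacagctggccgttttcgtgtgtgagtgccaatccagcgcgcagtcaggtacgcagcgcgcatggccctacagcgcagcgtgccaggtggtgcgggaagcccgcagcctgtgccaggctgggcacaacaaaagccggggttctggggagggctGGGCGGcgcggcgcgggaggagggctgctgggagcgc

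The TATA box was searched as TATAAA, the GC box as GGGCGG and the E-box as CACGTG. The AP-1 motif was searched as TGANTCA, the EGR motif as GCGNGGGCG and the STAT motif as TTCNNNGAA. Serpinb6a held 2 GC boxes, read on the opposite strand, and 1 STAT match, and Timp2 held 1 GC box. Among the 32851 promoter windows of this length, 32.7% held a GC box, 7.02% a STAT match, 12.4% a TATA box, 6.75% an AP-1 match, 4.70% an EGR match and 6.02% an E-box. The windows of Serpina3n and Serpinf1 held none of the 6, which says only that these letters are not in these windows. A second annotated start of Serpinb6a also had no match. Adamts4, Adam12 and Adam4 had no entry in the promoter table.

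The remaining inhibitors with clear signal did not pass. Timp4, a TIMP known mainly from heart and brain, read 1864, 2373 and 2842 in Med12 KD cells and 1875, 1539 and 1678 in NS control cells. The lowest Med12 KD array lay just below the highest NS control array, and the log2 difference was 0.44 ± 0.15 (SE, limma adjusted p = 0.0927). Timp3, the matrix-bound TIMP that also inhibits ADAM17 and aggrecanases, differed by 0.09 ± 0.19 (SE), and a second probe of it by -0.55. Serpinh1 encodes Hsp47, the endoplasmic reticulum chaperone of collagen, which is a serpin by structure and no protease inhibitor. It read 13027, 16415 and 18496 in Med12 KD cells and 13206, 16224 and 14185 in NS control cells, with overlap and a log2 difference of 0.14 ± 0.14 (SE). Serping1, the C1 inhibitor, stayed below background on all 3 NS control arrays and above it on 3 of 6 Med12 KD arrays.

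Among the proteases, Adamts4 had the lowest adjusted p. It encodes aggrecanase-1, which cuts aggrecan, brevican and versican. Its probe (ILMN_1230152) read 1090, 1133 and 1352 in Med12 KD cells, against 683, 489 and 511 in NS control cells. The groups were well apart, and 5 of the 6 Med12 KD values ran 1090 to 1162. The log2 difference was 1.06 ± 0.14 (SE, 95% interval 0.76 to 1.37), with a limma adjusted p of 0.00178, and this call stood under every one of 25 other settings tried. In set-by-set differences it was higher in 6 of 6 Med12 KD arrays, by 0.73 to 1.21, a count that follows from the lack of overlap.

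Adam12 (meltrin alpha), a metalloproteinase known to release HB-EGF and to cut IGF-binding proteins, also rose. It read 804, 1053 and 1670 in Med12 KD cells and 609, 652 and 473 in NS control cells (probe ILMN_1243254), without overlap. The log2 difference was 0.93 ± 0.22 (SE, limma adjusted p = 0.0260), and it was 0.78 without the set 1 Med12 KD arrays (adjusted p = 0.0458). The call was lost without Med12 KD 2_2 or any single NS control array (adjusted p up to 0.110, differences of 0.80 to 1.03). A second Adam12 probe near background differed by 0.31.

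Adam4 was the only member that fell. It is an ADAM known mainly from the mouse testis, and its signal lay close to background here. It read 8.7, 17.8 and 30.0 in Med12 KD cells, where 3 of 6 arrays were above background, and 50.5, 34.2 and 30.4 in NS control cells (probe ILMN_1235132). The groups came within 0.4 intensity units of each other. The log2 difference of -0.93 ± 0.24 (SE, limma adjusted p = 0.0350) was lost without any 1 of 7 arrays (Med12 KD 1, 3, 1_2 or 3_2, or NS control 1, 2 or 3; adjusted p up to 0.124, differences of -1.08 to -0.72). Both other Adam4 probes gave 0.04 and -0.05.

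**Figure D3:**
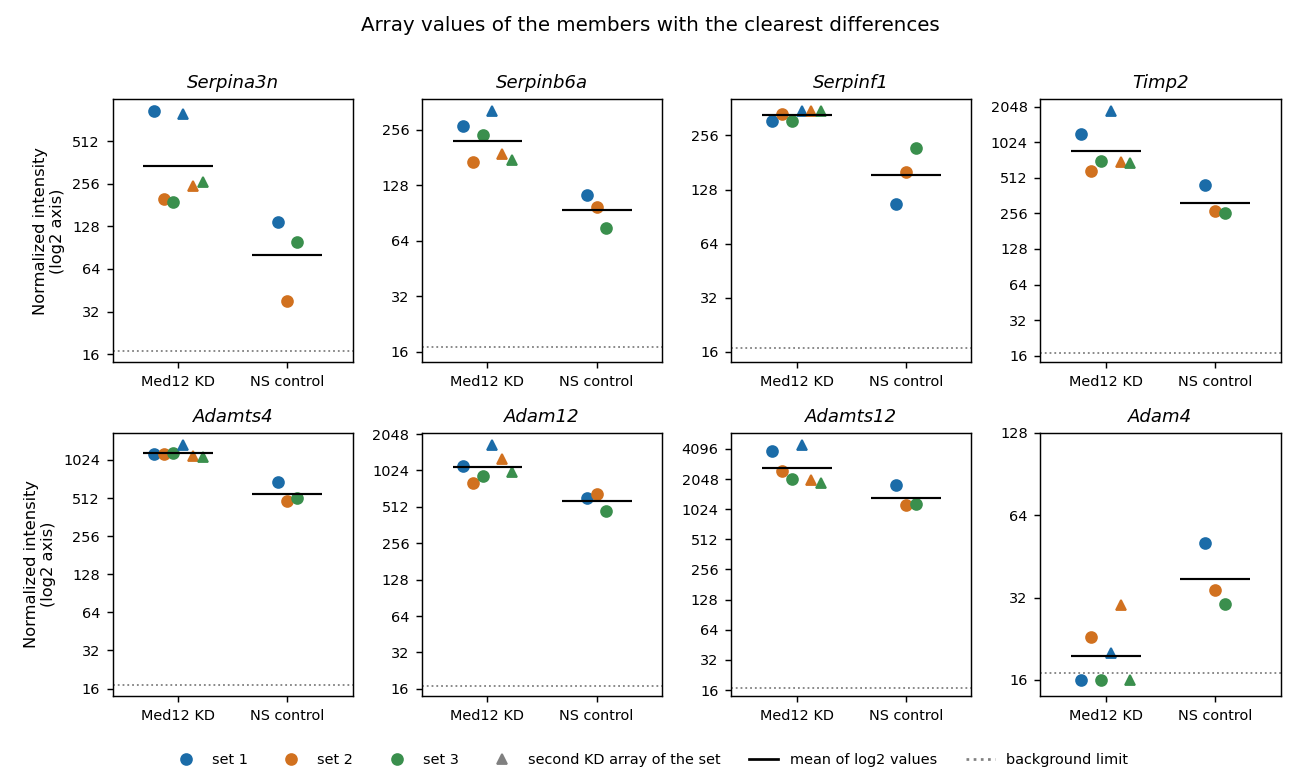
Normalized intensity on a log2 axis (values below 16 drawn at 16) for 8 members on the 6 Med12 KD arrays (left in each panel) and the 3 NS control arrays (right), coloured by set. Triangles are second Med12 KD arrays, bars are means of log2 values, and the dotted line is the background limit of 16.9; Serpina3n, Timp2 and Adamts12 were highest on both set 1 Med12 KD arrays, and Adam4 alone lay near the limit.

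The proteases Adamts12, Adam17, Mmp24 and Mmp17 did not overlap between the groups and did not pass. Adamts12, which is described after its values were seen, read 1859, 2235 and 4496 in Med12 KD cells and 1784, 1125 and 1166 in NS control cells, with a log2 difference of 0.98 ± 0.31 (SE, limma adjusted p = 0.0715). Its set 1 arrays were the highest of both groups, as for Timp2, and the difference was 0.64 without the set 1 Med12 KD arrays. Adam17, the sheddase of TNF and of several EGF receptor ligands, read 992, 1116 and 1225 in Med12 KD cells and 726, 947 and 909 in NS control cells, a difference of 0.37 ± 0.13 (SE, limma adjusted p = 0.103). Mmp24, a membrane-type MMP of neural tissue, differed by 0.29 ± 0.12 (SE, adjusted p = 0.140). Mmp17, a glycolipid-anchored MMP also described after its values were seen, read 245, 284 and 323 in Med12 KD cells and 434, 391.7 and 329 in NS control cells, a difference of -0.43 ± 0.14 (SE, limma adjusted p = 0.0793).

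None of the 9 tested MMPs passed in limma, beside 6.56% of all genes higher and 3.81% lower. Of their differences 5 were above 0 and 4 below (49.7% of all genes were above 0), and 3 had an unadjusted p under 0.05, beside 26.8% of all genes. Mmp14, the membrane-type enzyme that activates pro-Mmp2, read 334, 581 and 648 in Med12 KD cells and 418, 432 and 431 in NS control cells. All Med12 KD values but that of Med12 KD 3 were above all NS control values, and Med12 KD 3 was below them, so the difference of 0.35 ± 0.20 (SE) did not pass (limma adjusted p = 0.304). Without Med12 KD 3 it was 0.49, with an adjusted p of 0.0343, the only 1 of 25 other settings under which Mmp14 passed. Mmp2, the gelatinase that Mmp14 activates, was faint and differed by 0.54 ± 0.27 (SE, adjusted p = 0.230). Mmp16, another membrane-type MMP, read 31.9 to 123 in Med12 KD cells and 24.0 to 88.3 in NS control cells, a spread that covers its difference of 0.47 ± 0.48 (SE).

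Of the sheddases, Adam10, which acts on Notch and N-cadherin, was faint in NS control cells. It read 30.7, 66.5 and 77.5 in Med12 KD cells and 63.7, 19.4 and 14.7 in NS control cells. NS control 1 lay among the Med12 KD values, and the difference of 1.07 ± 0.44 (SE) did not pass (limma adjusted p = 0.148). Without NS control 1, the highest control value, it was 1.69 and passed (adjusted p = 0.0233), whereas a second probe gave 0.03. Of 25 other settings this was the only 1 under which Adam10 passed. Adam9 read 785 to 1006 in Med12 KD cells and 1737, 824 and 986 in NS control cells, with a difference of -0.36, or -0.04 without NS control 1. Adam15 differed by 0.14 ± 0.19 (SE). Adam22 and Adam23 encode catalytically inactive ADAMs that bind LGI proteins at synapses, and they differed by 0.09 ± 0.25 and 0.87 ± 0.30 (SE), with limma adjusted p values of 0.853 and 0.0922. Adamts1, an aggrecanase and anti-angiogenic protein, was faint, at 12.3 to 34.7 in Med12 KD cells and 24.4 to 27.6 in NS control cells. The other 23 tested members differed by -0.66 to 0.80, with 11 above 0 and 12 below, and did not pass (limma adjusted p of at least 0.0878).

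An exact two-sided permutation test of each mean difference over the 84 ways of placing 3 of the 9 arrays gave 0.0119, the smallest p this design allows, for Adam4, Adam12, Adam17, Adamts4, Mmp17, Mmp24, Serpinb6a, Serpinf1 and Timp2, and 0.0238 for Serpina3n. All of these genes were already without overlap between the groups, so these values mostly repeat that. The match was not complete, since the same permutation test gave 0.0357 for Adamts12, without overlap, and 0.0238 for Adam29, with overlap. Over all genes tested, every Med12 KD array was above every NS control array for 10.6%, and below for 8.39%. The placements also count both Med12 KD arrays of a set as independent. Within sets, each Med12 KD array was set against the NS control array of its own set. All 6 such differences were above 0 for Serpina3n (0.95 to 2.68), Timp2 (1.13 to 2.06), Serpinb6a (0.81 to 1.68), Serpinf1 (0.51 to 1.72), Adam12 (0.30 to 1.46), Adamts12 (0.67 to 1.33) and Timp4 (0.28 to 0.60). For Adam4 all 6 were below 0 (-1.66 to -0.19). Apart from Timp4, the genes just named did not overlap between the groups, so the sign of all 6 differences was already given. The 6 differences also share the same 3 NS control arrays. Such agreement was not limited to members that passed, since of the 47 tested, 12 had all 6 differences above 0 (Adam10, Adam17, Adamts9 and Mmp24 among them) and 4 all below (Adam4, Adam29, Mmp1a and Mmp17). Its share over all genes tested was not counted, so whether these counts are more than usual cannot be said.

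Different probes of 1 gene did not always give the same sign. Of 14 members with several probes above the filter, 6 had differences of both signs, namely Adam4, Adam15, Serpinb6a, Serpinf1, Serpinh1 and Timp3. The brightest probe of each gene was reported throughout. Serpina3n, Timp2 and Adamts4 had 1 probe above the filter, and no second reading exists for them.

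**Figure D4:**
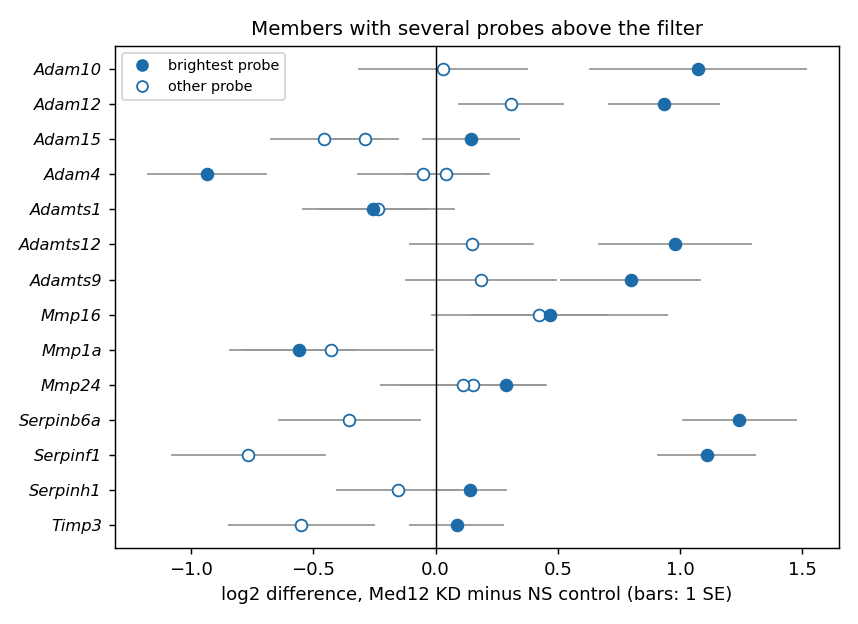
Log2 difference, Med12 KD minus NS control, with 1 SE, for each probe of the 14 members that had several probes above the filter. Filled points are the brightest probes; Serpinf1 (1.11 and -0.77) and Serpinb6a (1.24 and -0.35) had probes on both sides of 0.

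Further lists of genes from the same system were counted in the same fit, where 6.56% of all genes tested were higher, 3.81% lower and 49.7% above 0, with a median of -0.002. These shares stand behind each count that follows. The lists were chosen with earlier results of these data known, so setting their shares beside those of all genes is no test. Of the list of other inhibitors of secreted proteases, 2 of 9 tested genes (22.2%) were higher and 0 lower, with a median log2 difference of 0.32. The 2 were Agt, which is no inhibitor itself, and Itih3, listed as a chain of an inhibitor complex. The count is thus no count of inhibitors that rose. Agt, angiotensinogen, a serpin by structure, read 267, 413 and 646 in Med12 KD cells and 153, 79.7 and 151 in NS control cells, a difference of 1.75 ± 0.32 (SE, limma adjusted p = 0.00880). Itih3, a heavy chain of the inter-alpha inhibitor that is transferred to hyaluronan, read 102 to 181 in Med12 KD cells and 88.0, 13.5 and 32.9 in NS control cells, a difference of 1.87 ± 0.43 (SE, limma adjusted p = 0.0227). Itih3 did not pass without NS control 2 or 3 (adjusted p up to 0.0845, differences of 1.29 to 2.51). Cst3, cystatin C, read 9359 to 17494 in Med12 KD cells and 7328 to 10905 in NS control cells and did not pass. Reck, a membrane-anchored MMP inhibitor, differed by 0.20 ± 0.24 (SE).

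Among activators of metalloproteinases all 9 tested differences were above 0 and 1 passed (11.1%), with a median of 0.43 on the log2 scale. That gene was Tspan17, a TspanC8 tetraspanin that escorts Adam10, at 2657, 2967 and 3604 in Med12 KD cells and 1456, 1118 and 1336 in NS control cells. Its difference was 1.21 ± 0.14 (SE, limma adjusted p = 0.000922), with a wide gap between the groups. Rhbdf1 and Tspan14, which escort Adam17 and Adam10, did not overlap between the groups and did not pass, at 0.43 and 0.37 (limma adjusted p = 0.0556 and 0.0699).

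Among other surface and secreted metalloproteinases, 2 of 7 rose (28.6%) and 1 fell (14.3%), with a median of 0.14. Cpm, a membrane carboxypeptidase, rose by 1.42 ± 0.18 (SE, limma adjusted p = 0.00159) and read 31.8 to 57.0 in Med12 KD cells and 11.1 to 18.8 in NS control cells, near background. Cpe, which trims neuropeptides, rose by 0.99 ± 0.27 (SE, limma adjusted p = 0.0446) with overlap, at 6143 to 14468 in Med12 KD cells and 3648 to 6265 in NS control cells. That call was lost without any 1 of 7 arrays (Med12 KD 1, 3, 1_2, 2_2 or 3_2, or NS control 2 or 3; adjusted p up to 0.166, differences of 0.83 to 1.22). Ece2, an endothelin-converting enzyme, read 211 to 302 in Med12 KD cells and 366 to 428 in NS control cells and fell by 0.56 on the log2 scale (limma adjusted p = 0.0313). It did not pass without Med12 KD 1 or 2 or any single NS control array (adjusted p up to 0.125, differences of -0.60 to -0.48).

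Of the cysteine and lysosomal protease list, 2 of 11 rose (18.2%) and 0 fell, with a median of 0.47. Bace2, a membrane aspartic protease related to beta-secretase, had the largest difference of any gene named here, 2.60 ± 0.29 (SE, limma adjusted p = 0.000775). It read 263, 312 and 424 in Med12 KD cells and 87.6, 54.5 and 31.3 in NS control cells, far apart. Lgmn, the asparaginyl endopeptidase legumain, rose by 1.14 ± 0.17 (SE, limma adjusted p = 0.00307). Bace1, in contrast, differed by -0.06 ± 0.22 (SE).

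Targets of the proteases were counted last. Of 16 tested substrates of ADAM shedding, Cx3cl1 and Prnp rose (12.5%) and 0 fell, with a median of 0.05. Cx3cl1, the membrane chemokine fractalkine that Adam10 and Adam17 release, read 673, 908 and 1402 in Med12 KD cells and 595, 200 and 198 in NS control cells, a difference of 1.76 ± 0.37 (SE, limma adjusted p = 0.0163), which did not pass without NS control 2 or 3 (adjusted p up to 0.0760, differences of 1.49 to 2.29). Prnp, the prion protein, rose by 0.75 ± 0.20 (SE, limma adjusted p = 0.0380), a call lost without Med12 KD 1_2, 2_2 or 3_2 or NS control 2 or 3 (adjusted p up to 0.136, differences of 0.65 to 0.89). Notch1 and Dll1 differed by 0.01 and 0.13. Of 4 lectican and link protein genes tested, Hapln4, a link protein that is no substrate itself, rose by 0.78 ± 0.15 (SE, limma adjusted p = 0.0101), while the Adamts4 substrates Bcan, Ncan and Vcan differed by 0.42, 0.04 and 0.04 and did not pass.

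No gene of the plasminogen and extracellular serine protease list passed in limma, of 11 tested, while 3 had an unadjusted p under 0.05, beside 26.8% of all genes. Plat, tissue plasminogen activator, is named after its values were seen, since it alone of this list did not overlap between the groups. That is 9.09% of the list with every Med12 KD array below every NS control array, near the 8.39% of all genes. It read 2403, 2864 and 3459 in Med12 KD cells and 6415, 3500 and 3910 in NS control cells, a difference of -0.63 ± 0.20 (SE, adjusted p = 0.0670). The list's median was 0.05.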

How the data were processed

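Intensities of 45281 probes on 9 arrays were used as deposited. Before deposit, the authors had corrected the intensity values for background and applied quantile normalization in GenomeStudio (version not given in the sources used here), so levels are comparable between arrays for 1 probe; the number of arrays limits the precision. The 18 columns of a second, non-normalized table matched no sample label and were not used. Values ran -35.6 to 53518, and 33.4% to 33.5% per array were below 0; their mirrored spread (SD 10.3) set the background limit of 16.9 (the one-sided 95% point). Probes over it on at least 3 arrays were kept, values below 16 were set to 16, log2 was taken, and the brightest probe stood for each gene. Groups were compared with limma 3.58.1 (lmFit, eBayes; R 4.3.3) over 10757 genes, with Benjamini-Hochberg adjustment. The fit was tested on simulated data. In the annotation table of the platform, 34885 probes carried 1 symbol, 18 several and 10378 none.

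Named were all members at an adjusted p of at most 0.05, a set of members by role, those nearest the filter, and up to 4 passing genes per further list. Members and lists were chosen with earlier results of these data known. Alternatives were other floors or an offset of 50, other filters, other probe rules, a replicate block, averaging or splitting the second Med12 KD arrays, array weights, other variance priors and each array left out. Leaving out both set 1 Med12 KD arrays was added after seeing the data. A search of proteins for the zinc-binding motif was planned and not run, since no protein sequences were used here.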

Additional observations from a re-analysis of the deposited data

Results flagged for a closer look

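In 4 named genes 1 Med12 KD array lay far from the other 5, by its gap to the nearest value over the range of the 6 log2 intensities (Dixon's 95% critical value). Adamts4 was highest on Med12 KD 1_2, at 1352, with a ratio of 0.7017. Mmp14 was lowest on Med12 KD 3, at 334, with a ratio of 0.7444. Timp3 was lowest on the same array, at 288, with a ratio of 0.7227. Adam22 was lowest on Med12 KD 1_2, at 27.2, with a ratio of 0.7442. Of 35 named genes examined, chance alone marks about 1 in 20 groups of values, and groups of 3 arrays were not examined.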

How the results depend on the processing

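Over 25 alternatives the named genes gave 867 values, of which 739 kept direction and side of the threshold, 111 kept direction but lost the call, 9 gained one and 8 changed sign, none of the last past the threshold. Adamts4 passed under all 25, Serpinb6a under 23, Serpinf1 under 21, Adam12 under 19, Timp2 under 16, Serpina3n under 9 and Adam4 under 8. With 1 array left out, 373 to 674 genes were higher and 168 to 401 lower (706 and 410 with all arrays), 1 to 4 proteases and 2 to 4 inhibitors were higher, 0 to 1 protease and 0 to 3 inhibitors were lower, and medians ran 0.06 to 0.24 for proteases and 0.26 to 0.43 for inhibitors. Without NS control 2 or 3, inhibitors higher came to 2 and proteases higher to 1; without NS control 1, 3 faint serpins (Serpina3j, Serpina5 and Serpinb3a) were lower and Adam10 was higher. Inhibitors higher also came to 2 without Med12 KD 1; proteases higher came to 1 without Med12 KD 2_2 and to 4 without Med12 KD 3. All genes lower came to 272 without Med12 KD 2_2 and to 236, 187 and 168 without NS control 1, 2 and 3, and all genes higher to 381 and 373 without NS control 2 and 3. With both Med12 KD arrays of a set averaged, 344 genes were higher and 164 lower, and 0 proteases were lower and 1 inhibitor higher; with the first Med12 KD series alone 197 and 62, with 1 protease and 1 inhibitor higher and 0 proteases lower; with the second series alone 313 and 136, with 0 inhibitors higher and 0 proteases lower. These fits hold fewer arrays. Median inhibitor differences were 0.48 and 0.50 in the first and second series. Without a filter 437 genes were higher, 1 protease and 2 inhibitors were higher, 0 proteases were lower and both medians were 0, since faint genes at the floor enter. With values below 1 set to 1, 2 inhibitors were higher, 0 proteases were lower and the medians were 0.32 (proteases) and 0.61 (inhibitors); with values below 32 set to 32, 2 inhibitors were higher and 0 proteases lower. The strict limit gave medians of 0.33 and 0.73, and the limit on all arrays of a group 0.32 and 0.92. Adding 50, array weights, averaging probes and leaving out both set 1 Med12 KD arrays each left 0 proteases lower, and averaging probes left 2 inhibitors higher. With probes averaged, signs changed for Timp3 (-0.23), Adam15 (-0.20) and Serpinh1 (-0.00748); so did Adam22 in the second series (-0.10) and Adamts1 with values below 32 set to 32 (0.0195). With 1 array left out, Timp3 ran -0.15 to 0.31 (below 0 without NS control 2), Adam15 -0.0529 to 0.25 and Mmp16 -0.13 to 0.81 (both below 0 without NS control 1). Where not said, the cause was not tested.

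Set numbers were not taken as pairs: deviations of same-set NS control and Med12 KD arrays correlated at 0.03 to 0.30 and those of different sets at -0.23 to 0.10, and 5 of 6 Med12 KD arrays correlated best with the NS control of their own set (the exception was Med12 KD 2). With the set number as a replicate block, 1137 genes were higher and 751 lower, and 4 proteases were higher; all 7 members called remained, and Adamts12 (limma adjusted p = 0.00320), Adamts9 and Timp4 were added. Faint probes limit precision: 87 of 134 members were not tested.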
